A study of Mus musculus with 8 samples.

Results

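Cortical thymic epithelial cells (cTEC) were compared before and after birth in mouse, as 2 matched steps that each stayed within 1 data set of the study. The first step set newborn (NB) cTEC against cTEC of E15.5, a mid-gestation embryonic day. The second step set adult cTEC, replicate 2, against cTEC of E17.5, shortly before birth. A cell was a member when at most 5% of its unique molecular identifiers (UMIs) came from mt- genes, when it had at most 5000 detected genes, and when it held at least 1 UMI of Psmb11 or Prss16. This rule kept 15906 cells, of 16061 within the first 2 limits, of 16980 barcodes in the 4 libraries and of 28334 barcodes in the 8 libraries of the series. It kept 3547 cells at E15.5, 3589 in NB, 8344 at E17.5 and 426 in the adult.

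All 4 libraries came from thymus of wild-type (WT) mice of strain C57 B6 (CD45.2), with no transgene or treatment. Live cells were sorted as DAPI- EpCAM+ CD45- Ly51+ UEA-1-, that is, as epithelial cells that carry the cortical surface marker Ly51 and do not bind the medullary lectin UEA-1. Each age of a step had 1 library, so a single step has no replicate error. The study used mice of either sex, took newborns in the first days of life and adults at some weeks of age, and the number of animals in a library was not given in the sources used here. Fetal thymi were dispersed at 37 °C in trypsin with EDTA for a short time, whereas newborn and adult thymi were digested at 37 °C in Liberase with DNase for longer and enriched on a Percoll gradient. Birth and dissociation therefore fall on the same contrast in both steps and cannot be told apart. The ages of the 2 steps also differ, so the steps are not replicates of one change.

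Cortical TEC receive blood-borne precursors, direct them to the T cell lineage through Notch ligands and cytokines, and present self-peptides on MHC molecules for positive selection. Psmb11 encodes the cortical proteasome subunit beta5t, which makes the class I peptides of these cells, and Prss16 encodes a serine protease that acts on the class II pathway. Foxn1 is the transcription factor that both cortical and medullary TEC need. Fetal TEC cycle and expand with the organ, while adult cTEC rarely divide. Enzymatic release of cells from tissue at 37 °C is known to induce immediate early genes such as Fos, Jun and Atf3.

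The kept cells held between 3465411 UMIs (adult) and 89989793 UMIs (E17.5) over the 27514 genes that both data sets list, with medians of 6147 to 10369 UMIs per cell. Counts summed over cells were scaled to CPM, the counts of a gene per 1000000 counts of its library. At 50 CPM the adult library rests on 173 UMIs, with an exact 95% Poisson interval of 42.8 to 57.9 CPM, and intervals of this kind cover counting error only. Before the rule on Psmb11 and Prss16, and with each cell thinned to 2000 UMIs, the share of cells with a UMI of either gene was 97.2% at E15.5, 98.1% in NB, 99.5% at E17.5 and 70.3% in the adult, against 6.18% and 6.39% in the 2 adult medullary libraries. Without thinning the shares were 99.3%, 99.6%, 99.9% and 79.6%, against 25.1% and 29.5% in medullary cells, whose median depths were 9500.5 and 11386 UMIs against 7062 in the adult cTEC. The rule thus took a larger part of the adult cells than of the others. Asking for at least 5 UMIs left 336 adult cells. Cell barcodes shared between any 2 of the 4 libraries were at most 42.

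The cortical label was checked against marker genes. Psmb11 stood at 1369.6 CPM at E15.5, 1363 in NB, 1474 at E17.5 and 1626 in the adult. Prss16 stood at 2349, 3753, 3648 and 3559 CPM in the same order. Both genes chose the cells, so these levels are a description. Aire, a regulator of medullary cells, had 0.146, 0.0406, 0.333 and 2.597 CPM, and the 12 medullary genes listed summed to 81.3, 113, 85.8 and 104 CPM.

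Of the 27514 genes, 7737 had at least 10 CPM in 1 library or more of each pair and were tested. On the scale of log2(CPM + 1), NB cTEC had 499 genes at least 2-fold higher than E15.5 (6.45%) and 212 at least 2-fold lower (2.74%). Adult cTEC had 518 genes at least 2-fold higher than E17.5 (6.7%) and 490 at least 2-fold lower (6.33%). In both steps 284 genes were higher (3.67%) and 105 were lower (1.36%), while 22 genes passed 2-fold in opposite directions. The 284 genes made up 56.9% of the genes higher in NB and 54.8% of those higher in the adult. The 105 genes made up 49.5% of those lower in NB but 21.4% of those lower in the adult. Across the 7737 genes the log2 ratios of the 2 steps had a Pearson correlation of 0.64 and a Spearman correlation of 0.51, a description over genes that are not independent and that come from the same 4 libraries.

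**Figure D1:**
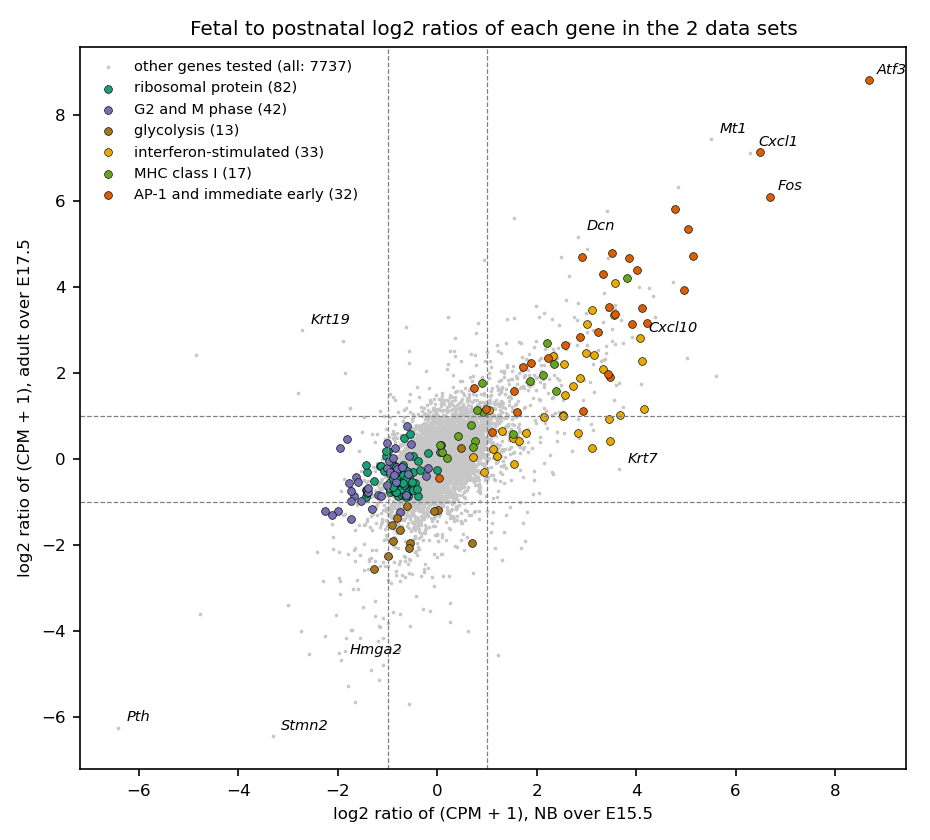
Each point is 1 of 7737 genes, placed by its log2 ratio of (CPM + 1) in NB over E15.5 (horizontal axis) and in adult over E17.5 (vertical axis). Colours mark gene lists, and dashed lines mark 2-fold. AP-1 and immediate early genes lie at the upper right, with Atf3 farthest out at 8.68 and 8.81, and glycolysis genes lie lower in the adult step than in the NB step.

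A test over the 4 libraries, edgeR's quasi-likelihood test of birth with the data set as a term and Benjamini-Hochberg adjustment at 0.05, called 251 genes higher after birth (3.24%) and 81 lower (1.05%). Of these, 243 and 68 were also 2-fold the same way in both steps. Below, "rose" and "fell" are used only for genes with such a call. The spread behind it starts from the disagreement of a gene between the 2 steps, with 1 residual degree of freedom. The test then draws that spread toward a trend over all genes tested, so a small p rests in part on other genes. Each SE printed below is the log2 change divided by the square root of the test statistic F. The calls are fragile. They numbered 5 higher and 1 lower when adult cTEC replicate 1 was added to the test, and 16 and 1 without the data set term. Leaving ribosomal protein and mt- genes out of the totals gave 199 higher and 109 lower in this test, and 253 higher and 227 lower by size, and this scaling moved the median log2 ratio of the genes tested from 0.011 to -0.18 in the NB step and from 0.0091 to -0.15 in the adult step.

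AP-1 and immediate early genes had the largest medians of the lists described here, markers of other cells aside. These genes encode transcription factors and their feedback inhibitors that cells switch on within minutes of a stimulus. Of 39 listed genes found, 32 passed the 10 CPM floor, 28 were at least 2-fold higher in both steps and none was 2-fold lower in either, and 27 rose in edgeR. The median log2 ratio was 3.44 in NB and 3.14 in the adult, where all genes tested had 0.011 and 0.0091. The summed level of the list went from 1676 CPM at E15.5 to 14740.0 in NB, and from 2578 at E17.5 to 14780.0 in the adult. The change of dissociation falls on the same contrast, and its part in these differences was not tested. Among cells of low proliferation score, and separately without droplets of at least 3 thymocyte UMIs, the count of members higher in both steps was again 28.

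Atf3, a stress-induced repressor of the ATF family, had 0.07302 CPM at E15.5 and 0.244 at E17.5, against 439.9 in NB and 558 in the adult. The fetal values rest on 2 UMIs and 22 UMIs, so the fold has a wide interval, 1667 to 49751 in the NB step and 1504 to 3653 in the adult step. Atf3 rose by 11.44 on the log2 scale (SE 0.44, edgeR adjusted p = 0.000386). With cells thinned to 2000 UMIs, an Atf3 UMI was found in 41.8% of NB cells (exact 95% binomial interval 40.2% to 43.4%) and 48.9% of adult cells (44.1% to 53.8%). It was found in 4 of 8259 cells at E17.5 (0.0484%) and in 0 of 3533 cells at E15.5, which allows a share of cells with a UMI of up to 0.0849% when 3 counts are taken as the limit, or 0.104% by the exact interval. No background share from free RNA was measured for these genes.

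Fos encodes the AP-1 subunit that pairs with Jun. Fos had 21.6 CPM at E15.5, 2319.7 in NB, 26.3 at E17.5 and 1865 in the adult, a difference of 108-fold (95% interval 99.1 to 117) and 70.8-fold (67.6 to 74.3). It was high in both postnatal libraries and low in both fetal ones, as were Jun, Junb and Fosb. Jun had 73.8, 2331, 103 and 1567 CPM, and Junb had 141, 2467, 193 and 2215 CPM. Fosb had 4.42, 483, 0.333 and 187 CPM. Fos rose by 6.42 (SE 0.29, edgeR adjusted p = 0.000428), Jun by 4.43 (SE 0.33, edgeR adjusted p = 0.00176) and Fosb by 7.81 (SE 0.65, edgeR adjusted p = 0.00229). Most postnatal cells held Fos and Jun: after thinning, Fos was found in 3.31% of E15.5, 86.2% of NB, 4.47% of E17.5 and 78.6% of adult cells (the last with an interval of 74.4% to 82.4%), and Jun in 12.8%, 83.1%, 16.5% and 82.2%. Fosb was found in 52.3% of NB and 27.8% of adult cells.

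Other immediate early genes followed. Egr1, a zinc finger factor of the growth factor response, had 22.4, 775, 14.6 and 632 CPM and rose by 5.25 (SE 0.27, edgeR adjusted p = 0.000497). Dusp1, a phosphatase that switches off MAP kinases, had 6.24, 117, 6.87 and 163 CPM and rose by 4.37. Nfkbiz, an atypical I-kappa-B protein, had 11.8, 185, 7.12 and 205 CPM and rose by 4.39. Klf2, a Krüppel-like factor, had 0.07302 and 28.7 CPM in the NB step and 6.52 and 423 CPM in the adult step, and rose by 6.52. Zfp36l1, which binds AU-rich messages, was 1 of the 4 tested members that did not pass 2-fold in both steps, with 519, 533, 566 and 416 CPM. Of the members under the floor, Fosl1 had 0.0365, 6.54, 0.0444 and 5.19 CPM.

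Of the 15 leading genes that rose, 4 were on no list. Cxcl1, a chemokine for neutrophils, had 0.329 CPM at E15.5, 103 in NB, 0.422 at E17.5 and 197 in the adult (log2 change 8.61, SE 0.35, edgeR adjusted p = 0.000386). Cyr61, a secreted matrix-associated protein, had 3.61, 122, 11.9 and 223 CPM and rose by 4.61. Anxa1, a glucocorticoid-regulated phospholipid-binding protein, had 4.42, 88.7, 9.31 and 163 CPM and rose by 4.20. F830016B08Rik, a member of the interferon-inducible GTPases, had 8.397, 179, 10.4 and 178 CPM and rose by 4.23. It belongs to a family of similar genes, so its reads may be split among copies. For each of these 4 genes the postnatal library lay above its fetal partner in both steps.

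**Figure D2:**
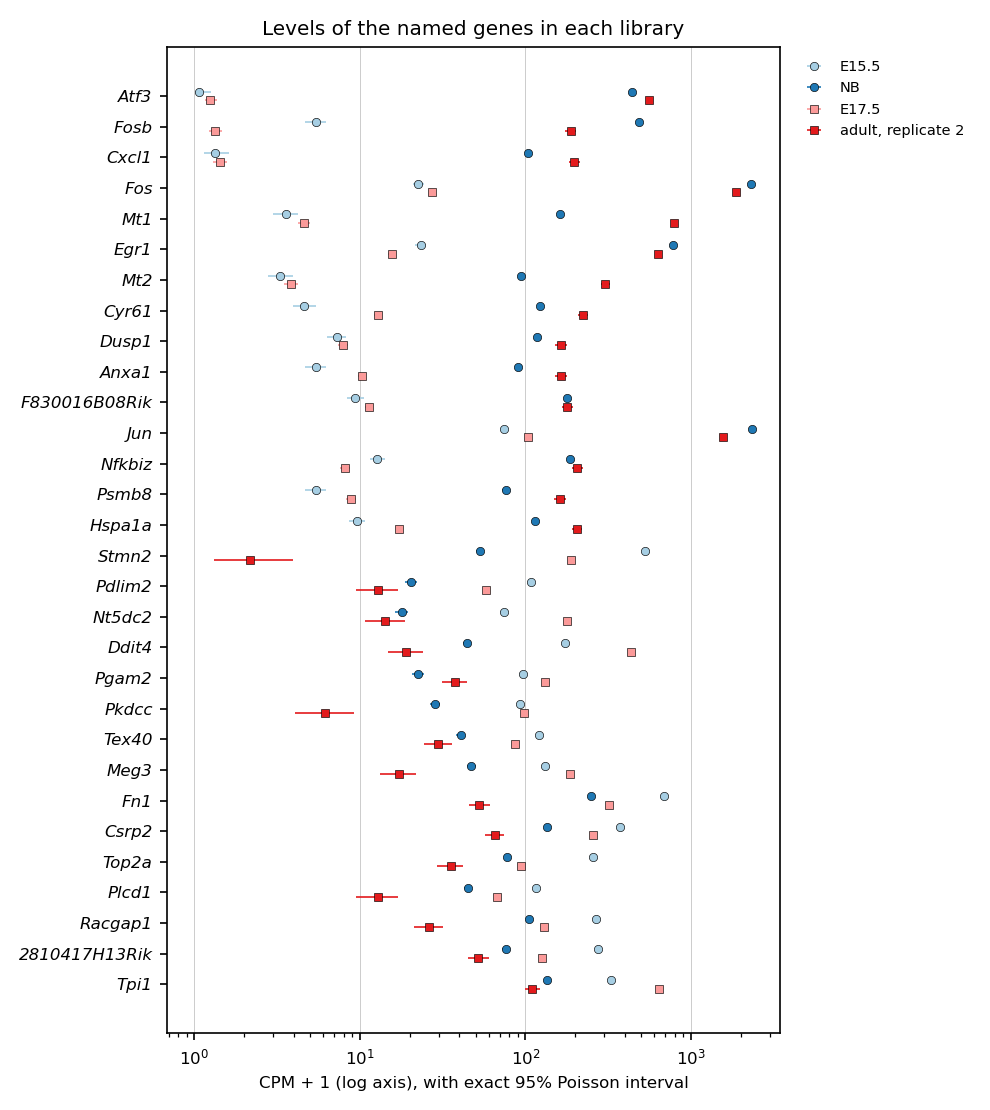
Levels of the 15 leading genes that rose and the 15 that fell, with 1 symbol per library on a log axis of CPM + 1 and bars for the exact 95% Poisson interval of the counts. Postnatal symbols (dark) lie to the right of fetal symbols (pale) of the same data set for the upper 15 genes and to the left for the lower 15.

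Sequence just before the gene start is shown for 6 of the named genes, 5 that rose and Top2a, which fell, to show where the motifs counted below stand. The sequences run 5′ to 3′ on the gene's own strand, from 250 bases before to 50 bases after the start, as listed by RefSeq for GRCm38.p6. The first promoter listed for a gene was taken. Capitals mark TGANTCA (an AP-1 motif), CACGTG (an E-box), CCAAT, GAANNTTC (a heat shock half-site pair) and TTCNNNGAA (a STAT motif), searched on both strands.
Mt2 (chr8:94172368-94172667, + strand): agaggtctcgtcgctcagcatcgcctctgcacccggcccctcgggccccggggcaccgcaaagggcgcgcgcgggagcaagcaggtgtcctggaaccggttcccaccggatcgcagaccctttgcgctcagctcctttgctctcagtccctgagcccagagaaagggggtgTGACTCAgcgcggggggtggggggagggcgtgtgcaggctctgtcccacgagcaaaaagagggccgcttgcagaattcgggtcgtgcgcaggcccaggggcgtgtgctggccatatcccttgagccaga
Psmb8 (chr17:34197945-34198244, + strand): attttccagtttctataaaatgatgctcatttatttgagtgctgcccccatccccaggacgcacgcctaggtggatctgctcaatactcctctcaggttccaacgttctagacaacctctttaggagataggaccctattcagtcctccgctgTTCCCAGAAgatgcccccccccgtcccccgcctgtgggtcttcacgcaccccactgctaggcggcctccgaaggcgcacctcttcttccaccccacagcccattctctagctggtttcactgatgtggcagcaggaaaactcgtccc
Hspa1a (chr17:34972107-34972406, − strand): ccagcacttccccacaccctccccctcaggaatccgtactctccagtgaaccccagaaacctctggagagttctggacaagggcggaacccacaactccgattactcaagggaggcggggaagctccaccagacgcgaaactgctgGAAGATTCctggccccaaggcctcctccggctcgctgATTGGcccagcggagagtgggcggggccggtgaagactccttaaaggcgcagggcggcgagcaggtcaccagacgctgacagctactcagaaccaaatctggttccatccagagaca
Jun (chr4:95052173-95052472, − strand): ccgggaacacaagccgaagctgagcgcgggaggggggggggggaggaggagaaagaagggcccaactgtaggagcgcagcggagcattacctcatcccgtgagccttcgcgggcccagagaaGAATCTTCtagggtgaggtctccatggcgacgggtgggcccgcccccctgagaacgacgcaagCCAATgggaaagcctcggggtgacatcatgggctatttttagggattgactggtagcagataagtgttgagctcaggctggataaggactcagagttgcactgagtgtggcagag
Dusp1 (chr17:26508423-26508722, − strand): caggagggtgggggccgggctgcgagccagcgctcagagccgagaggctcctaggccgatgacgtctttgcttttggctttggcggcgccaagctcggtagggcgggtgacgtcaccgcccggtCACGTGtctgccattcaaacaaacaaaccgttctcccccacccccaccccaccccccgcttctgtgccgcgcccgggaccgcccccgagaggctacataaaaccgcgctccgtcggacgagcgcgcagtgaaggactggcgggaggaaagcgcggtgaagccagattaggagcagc
Top2a (chr11:99024140-99024439, − strand): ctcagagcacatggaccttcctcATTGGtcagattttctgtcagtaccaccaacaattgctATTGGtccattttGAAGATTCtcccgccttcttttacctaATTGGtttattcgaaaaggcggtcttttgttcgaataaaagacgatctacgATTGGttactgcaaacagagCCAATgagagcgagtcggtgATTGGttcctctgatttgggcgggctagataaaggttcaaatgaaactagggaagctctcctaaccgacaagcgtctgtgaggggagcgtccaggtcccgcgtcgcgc
Mt2 holds 1 AP-1 motif, Psmb8 holds 1 STAT motif, Dusp1 holds 1 E-box, and Hspa1a and Jun each hold 1 heat shock pair and 1 CCAAT box. The cell cycle gene Top2a, which fell, holds 6 CCAAT boxes and 1 heat shock pair. All promoters shown hold a motif, which is not so for all named genes. Those of Fosb, Cxcl1, Fos, Mt1 and Anxa1, which rose, hold none of the motifs searched. Nor do those of Pkdcc, Plcd1 and Tpi1, which fell. Of the 284 genes higher in both steps, 212 matched a listed promoter, and 22 of these (10.4%) held TGANTCA. The motif stood in 1 of 73 matched promoters (1.37%) of the genes lower in both steps, in 4.25% of 6006 promoters of tested genes and in 7.93% of all 27025 promoters. TTCNNNGAA stood in 11.8%, 5.48%, 6.53% and 8.47% of the same sets. The other 3 motifs stood in 9.91%, 5.48%, 10.8% and 7.24% (CACGTG), 40.6%, 38.4%, 38.98% and 37.9% (CCAAT), and 6.604%, 6.85%, 5.61% and 7.95% (GAANNTTC). A match is only a run of letters, and nothing follows from it about binding.

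Metallothioneins and glucocorticoid-responsive genes split. Of 14 genes listed, 10 passed the floor, 5 were 2-fold higher in both steps and 2 were 2-fold lower. The median log2 ratios were 0.98 and 1.22. Mt1, a zinc-binding metallothionein, had 2.56 CPM at E15.5 and 161 in NB, 3.61 at E17.5 and 794 in the adult, and rose by 6.90 (SE 0.53, edgeR adjusted p = 0.00182). Its partner Mt2 had 2.300, 93.6, 2.83 and 303 CPM. After thinning, an Mt1 UMI was found in 15.46% of NB cells and 44.4% of adult cells. Tsc22d3, Klf9 and Cdkn1a also rose, by 1.26, 1.66 and 1.76. Ddit4, an inhibitor of mTORC1 that hypoxia and glucocorticoid also induce, had 173, 43.3, 434 and 17.9 CPM and fell (log2 change -3.24, SE 0.62, edgeR adjusted p = 0.0409). The other glucocorticoid targets Fkbp5 and Per1 had lower values after birth without a call: Fkbp5 had 90.6, 49.6, 66.7 and 16.7 CPM (edgeR adjusted p = 0.0671) and Per1 had 19.1, 8.94, 16.3 and 4.91 CPM (edgeR adjusted p = 0.0744).

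Heat shock chaperones were higher in part. Of 17 genes tested, 4 were 2-fold higher in both steps and 5 rose, with medians of 0.34 and 0.84. Hspa1a, the inducible Hsp70, had 8.62, 114, 16.3 and 205 CPM and rose by 3.66 (SE 0.25, edgeR adjusted p = 0.00145). Hspa1b, a near-identical copy that shares reads with it, did not reach the floor in data set 1, with 1.497, 5.52, 2.26 and 31.2 CPM. Dnajb1, its co-chaperone, rose by 3.16, and Hspa5, the chaperone of the endoplasmic reticulum, by 1.12. The constitutive Hsp90ab1 had 3832, 3287, 2383 and 1949 CPM, and its log2 ratios were -0.22 and -0.29.

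Interferon-stimulated genes were higher after birth in both data sets, more so in NB. Of 36 genes listed, 33 were tested, 31 were 2-fold higher in NB, 19 in the adult and 19 in both, and 15 rose. The medians were 2.73 and 1.02, and the difference between the 2 steps was not tested. Cxcl10, a chemokine for activated T cells, had 124 CPM at E15.5 and 2106 in NB (16.96-fold, 16.4 to 17.6), and 184 at E17.5 and 1290.2 in the adult (7.03-fold, 6.797 to 7.26). It was found in 13.2%, 80.05%, 19.8% and 62.5% of thinned cells. Iigp1, an interferon-inducible GTPase, had 57.9, 521, 132 and 700.1 CPM. Irf1, the transcription factor downstream of interferon-gamma, had 90.5, 535, 104 and 484 CPM and rose by 2.37 (SE 0.24, edgeR adjusted p = 0.00417). Gbp2 rose by 2.38, Socs1 by 3.35 and Cxcl9 by 5.51.

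Genes of the type I response were not alike in the adult step. Ifit1, which binds viral RNA, had 32.3, 242, 88.8 and 330.4 CPM and rose by 2.38 (SE 0.32, edgeR adjusted p = 0.0121), and Rtp4 rose by 3.27. Ifit3, Rsad2 and Usp18 were 2-fold higher in both steps without a call. Irf7 and Isg15 were 2-fold higher in NB alone. Irf7, which amplifies that response, had 10.8 CPM at E15.5 and 130.3 in NB, but 50.2 at E17.5 and 66.9 in the adult, with log2 ratios of 3.48 and 0.41. Isg15, a ubiquitin-like modifier, had 126, 903, 522 and 785 CPM, with 2.83 and 0.59. Neither of the last 2 passed in edgeR (edgeR adjusted p = 0.2 and 0.137). The E17.5 levels of Irf7 and Isg15 were above those of E15.5, but they come from another data set. Thymocyte markers, which summed to 11.7, 119, 32.6 and 152 CPM, moved with the list. Without droplets of at least 3 thymocyte UMIs, 20 members were 2-fold higher in both steps. The count was 22 with no rule on Psmb11 and Prss16, and 16 with at least 5 UMIs of these genes. It was also 16 among cells of low proliferation score, and 14 with a pseudocount of 10 CPM.

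Genes of MHC class I presentation were higher after birth in both steps. Of 17 genes tested, 17 had ratios above 1 in both steps, 6 were 2-fold higher in both and 6 rose, with medians of 0.90 and 1.08. B2m, the invariant light chain, had 566, 2068, 959 and 3389 CPM and rose by 1.82 (SE 0.19, edgeR adjusted p = 0.0051). H2-K1, a class I heavy chain, had 236, 1028, 364 and 1405 CPM, and H2-D1 had 229, 1162, 292 and 1346. Class I heavy chain genes resemble one another, so reads may be split among them. After thinning, H2-K1 was found in 32.01%, 81.5%, 47.1% and 90.7% of cells.

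Of the catalytic subunits of the immunoproteasome, Psmb8 rose and Psmb9 and Psmb10 had no call. Psmb8 encodes beta5i, the subunit whose place beta5t takes in cTEC. Psmb8 had 4.42 CPM at E15.5, 75.2 in NB, 7.81 at E17.5 and 161 in the adult, 17.01-fold (14.1 to 20.6) and 20.6-fold (18.4 to 23.03) higher, and rose by 4.20 (SE 0.26, edgeR adjusted p = 0.00114). Psmb9 had 447, 779.8, 356 and 780.3 CPM (log2 change 0.94, edgeR adjusted p = 0.0682), and Psmb10 had 1354, 1558, 1323 and 1334 (log2 change 0.084, edgeR adjusted p = 0.843). Of the 14 constitutive core subunits, 12 had ratios above 1 in both steps and 0 were 2-fold higher, with medians of 0.63 and 0.23. The edgeR test called 0 of them, 2 at an unadjusted p under 0.05, and DESeq2 called 0.

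Genes of MHC class II presentation were higher in NB, with smaller ratios in the adult, a difference that was not tested. Of 12 tested, 9 were 2-fold higher in NB and 2 in the adult, and 3 rose, with medians of 1.41 and 0.59. Cd74, the invariant chain, had 3681, 8862, 6789.8 and 13484 CPM and rose by 1.11 (SE 0.17, edgeR adjusted p = 0.0191). H2-DMb2, a chain of the peptide exchange factor H2-DM, had 25.05, 199, 116 and 301 CPM and rose by 2.16 (edgeR adjusted p = 0.0409). The antigen-binding chain H2-Ab1 had 2306, 6375, 3566 and 5611 CPM (edgeR adjusted p = 0.0671). Ciita, the class II transactivator, had 19.6, 45.8, 64.5 and 60.6 CPM, so that it was 2-fold higher in NB alone.

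**Figure D3:**
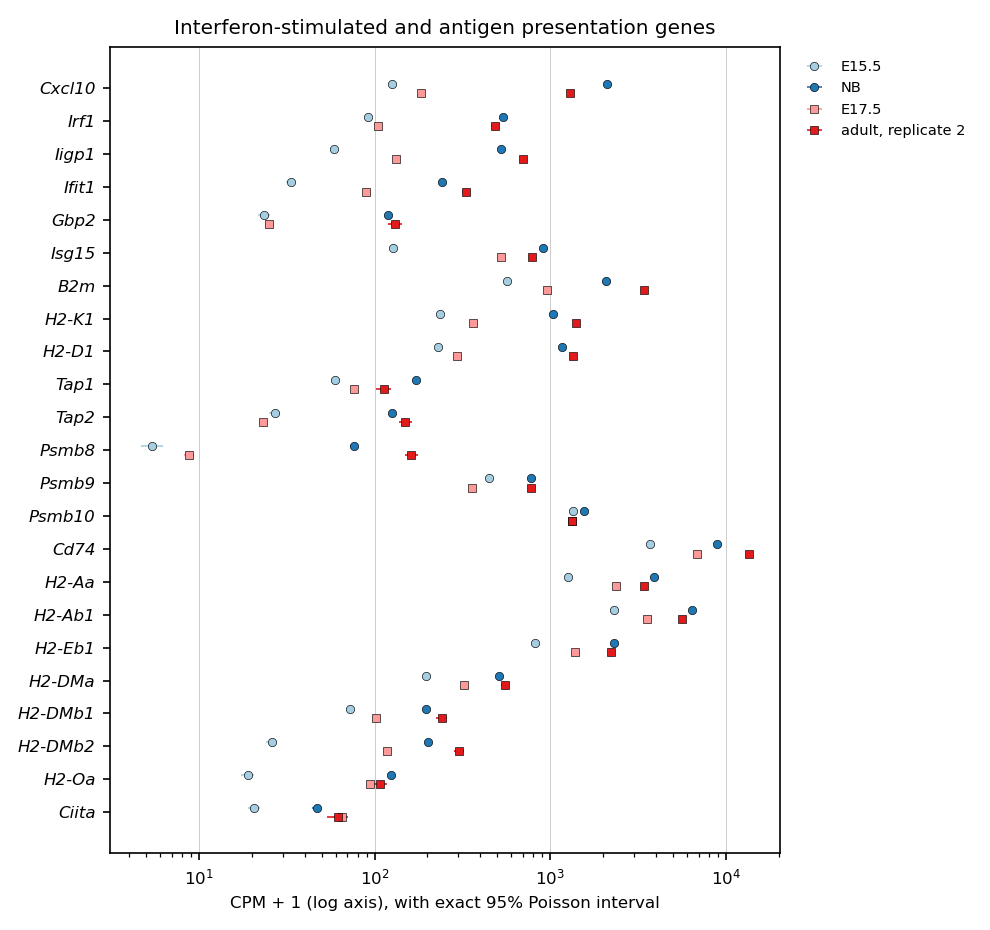
Levels of 23 interferon-stimulated, class I and class II genes, with 1 symbol per library on a log axis of CPM + 1 and bars for the exact 95% Poisson interval. The largest gaps between pale (fetal) and dark (postnatal) symbols are those of Psmb8 and Cxcl10, and Psmb10 shows almost none.

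Genes for cortical function had smaller ratios. Psmb11 and Prss16, which chose the cells, are 2 of the 8 cortical genes tested. Of the other 6, 2 were 2-fold higher in NB and 0 in the adult, with medians of 0.85 and 0.37. Ctsl, the cathepsin that makes class II peptides in cTEC, had 4396 CPM at E15.5, 13860.0 in NB, 13271 at E17.5 and 11040.0 in the adult. Ctsl was thus at least 2-fold higher in NB than at E15.5, and not 2-fold different in the adult step. Tbata had 2098, 4709, 5599.8 and 8282 CPM (edgeR adjusted p = 0.0784). The edgeR test called 0 of these 6 genes, with 3 (Enpep, Ly75 and Tbata) at an unadjusted p under 0.05, and DESeq2 called 1 of the 8.

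Factors that cTEC make for thymocytes also varied. Ccl25, a chemokine that draws in precursors, had 2175, 4211, 2399.5 and 4489 CPM and rose by 0.91 (SE 0.18, edgeR adjusted p = 0.0426). The share of thinned cells with a Ccl25 UMI was 88.6%, 89.2%, 88.3% and 67.5%, so in the adult step the share was lower while the summed level was higher. Cd274, which encodes PD-L1, had 64.6, 209.7, 53.5 and 172 CPM and rose by 1.67. The adhesion molecule Icam1 had 106, 260.1, 190.1 and 404 CPM and rose by 1.17. Dll4, the Notch ligand that sets T cell fate, had 80.2, 55.1, 52.1 and 58.3 CPM (edgeR adjusted p = 0.683), and Il7 had 356, 282, 311 and 190.2 CPM (edgeR adjusted p = 0.243). Dll1, a related Notch ligand, had 5.37, 21.00, 7.101 and 26.8 CPM and rose by 1.92 (edgeR adjusted p = 0.0166). Over the 11 tested genes of thymocyte support, 2 were 2-fold higher in both steps, and over the 8 of the Notch pathway 1 was.

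Transcription factors of thymus organogenesis had mostly small ratios. Foxn1 had 142 CPM at E15.5, 97.5 in NB, 113 at E17.5 and 88.9 in the adult, which gave log2 ratios of -0.54 and -0.34 and no call (log2 change -0.47, SE 0.22, edgeR adjusted p = 0.295). Pax1 had 338, 205, 947 and 429.7 CPM (edgeR adjusted p = 0.0748), and Trp63 had 268, 123, 146 and 89.7 (edgeR adjusted p = 0.0861). Sox9 was the member of the 14 tested that rose, by 1.49 (edgeR adjusted p = 0.0293), with 25.1, 87.2, 31.9 and 74.5 CPM.

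**Figure D4:**
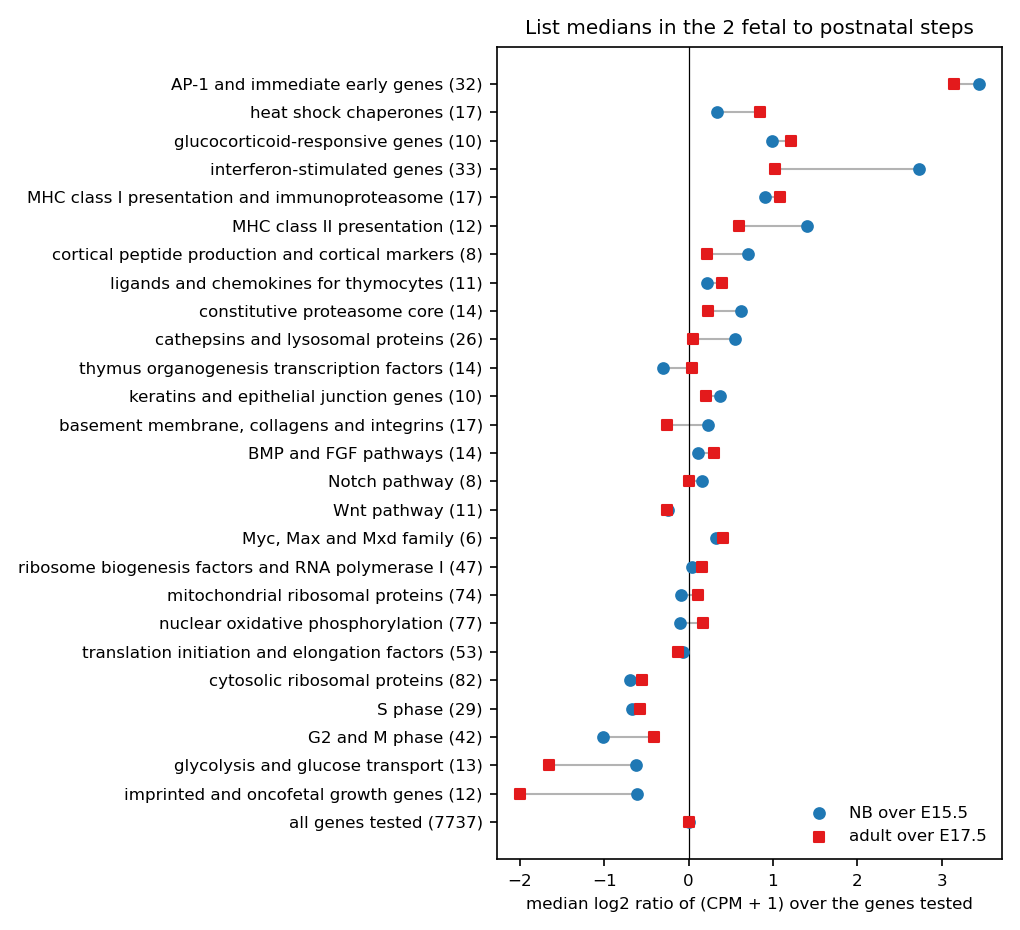
Median log2 ratio of (CPM + 1) over the tested genes of each list (number in brackets), in NB over E15.5 (circles) and adult over E17.5 (squares). AP-1 genes stand at 3.44 and 3.14, and of the lists plotted, which leave out markers of other cells, fetal growth lies lowest in the adult step at -1.99.

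Cell cycle genes were lower after birth. Of 42 G2 and M phase genes tested, 22 were 2-fold lower in NB, 6 in the adult and 5 in both, and 7 fell, with medians of -1.01 and -0.41. Of 29 S phase genes, 3 were 2-fold lower in both steps and 3 fell, with medians of -0.67 and -0.58. With ribosomal protein and mt- genes left out of the totals, 10 of 35 S phase and 9 of 46 G2 and M phase genes were lower in both steps. The count was 7 of 29 for S phase without thymocyte droplets, and 13 of 42 for G2 and M phase with at least 5 UMIs of Psmb11 and Prss16. Other settings gave fewer. For S phase and for G2 and M phase, the counts were 1 of 29 and 2 of 42 with a pseudocount of 10 CPM. They were 0 of 3 and 3 of 15 with a floor of 50 CPM, and 1 of 17 and 1 of 22 among cells of low proliferation score. Top2a, the topoisomerase of dividing cells, had 257, 76.5, 92.9 and 34.3 CPM and fell (log2 change -1.62, SE 0.24, edgeR adjusted p = 0.0167). The PCNA-associated factor 2810417H13Rik had 276, 75.03, 125 and 51.1 CPM, and Racgap1, which acts in cytokinesis, had 267, 105, 128 and 25.1. Dtl, a licensing control factor, had 66.7, 16.3, 24.02 and 4.62 CPM and fell (log2 change -2.19, edgeR adjusted p = 0.00699).

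The share of cells with a high proliferation score was 30.3% at E15.5 and 12.5% in NB, and 13.8% at E17.5 and 8.92% in the adult. Of all Top2a UMIs, the 1% of cells with most held 10.4% at E15.5, 27.7% in NB, 18.1% at E17.5 and 41.2% in the adult. Among cells of low score the G2 and M phase medians were -0.11 and -0.49 and those of S phase were -0.030 and -0.42, over 22 and 17 genes, a choice of cells that itself uses the lists.

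Ribosomal protein genes were lower as a group without single genes passing 2-fold in both steps. All 82 genes were tested, 75 lay below 1 in both steps, 11 were 2-fold lower in NB and 0 in the adult. The edgeR test called 2 lower, with 68 lower at an unadjusted p under 0.05, and DESeq2 called 21 lower. Their share of all UMIs was 24.2% at E15.5 and 15.04% in NB, and 26.6% at E17.5 and 19.2% in the adult. Rps26 fell, with 1509.7, 556, 2800.2 and 1522 CPM (log2 change -1.18, SE 0.22, edgeR adjusted p = 0.0375). Rpl23a also fell, but its level was 98.6 CPM at E15.5 and 4268 at E17.5, so the 2 data sets do not count it alike. Among cells of low proliferation score the medians of the list were -0.73 and -0.56, against -0.69 and -0.55 over all kept cells. Eef1a1, the main elongation factor, had 5369.8, 2881, 4086 and 2247 CPM and fell (log2 change -0.90, edgeR adjusted p = 0.0409).

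Other lists of protein synthesis and energy metabolism had medians near those of all genes. The 47 tested genes of ribosome biogenesis had medians of 0.041 and 0.16, with 2 genes 2-fold higher in the adult and 0 past 2-fold in NB. The 74 mitochondrial ribosomal proteins had -0.087 and 0.12, the 77 nuclear genes of oxidative phosphorylation had -0.10 and 0.17, and the 53 translation factors had -0.065 and -0.12. In the first 3 of these lists edgeR called 0 genes, with 4, 5 and 2 at an unadjusted p under 0.05 and 1, 1 and 0 called by DESeq2.

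Myc, a driver of growth and of ribosome production, had 16.98 CPM at E15.5 and 26.3 in NB (1.55-fold, 1.37 to 1.75), and 17.3 at E17.5 and 45.6 in the adult (2.63-fold, 2.22 to 3.097). Its log2 change was 0.98 (SE 0.26, edgeR adjusted p = 0.1), which did not pass. A Myc UMI was found in 3.57%, 4.68%, 3.35% and 10.4% of thinned cells. Its partner Max had 50.9, 55.3, 31.7 and 59.2 CPM, while Mycn stayed at or under 1.36 CPM in the 4 libraries. Of the 6 tested genes of this network 0 were 2-fold different the same way in both steps, and edgeR called 0, 1 higher and 1 lower at an unadjusted p under 0.05, and DESeq2 called 0.

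Glycolytic genes had medians below 0 in both steps, and the difference between the steps was not tested. Of 13 tested, 12 were 2-fold lower in the adult and 1 in NB, and 2 fell, with medians of -0.62 and -1.66. Tpi1, triosephosphate isomerase, had 328, 135, 646 and 109 CPM and fell (log2 change -1.94, SE 0.35, edgeR adjusted p = 0.0344). Pgam1 fell as well, with 392, 209, 608 and 208 CPM. Pkm, pyruvate kinase, had 588, 294, 1008 and 211 CPM (edgeR adjusted p = 0.0507), and Gapdh had 542, 353, 2276 and 1055 (edgeR adjusted p = 0.0831). The summed list stood at 3805 CPM at E15.5, 2691 in NB, 9236 at E17.5 and 3517 in the adult, with E17.5 the highest. With adult cTEC replicate 1 in place of NB, the first median was -0.012 over 15 tested genes. Pgk1 did not reach the floor in data set 1, where it had 6.28 and 1.79 CPM, against 633 and 107 in data set 2. Ldhb, the subunit that favours lactate use, had 332, 460.1, 350.1 and 414 CPM.

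Imprinted and oncofetal growth genes had medians below 0. Igf2, Igf2bp1 and Igf2bp3 of this list belong to the fetal genes that the study picked by setting an earlier fetal library against NB, and Hmga2 is named there as fetal-specific. The NB library is also used here, so their direction is no independent evidence. Of 26 genes, 12 passed the floor, 4 of them (H19, Hmga2, Meg3 and Cdkn1c) were 2-fold lower in both steps, and Meg3 fell. The medians were -0.61 and -1.99. Meg3, an imprinted noncoding RNA, had 131, 46.3, 185 and 16.2 CPM (log2 change -2.46, SE 0.49, edgeR adjusted p = 0.0448). H19, from the same class of transcripts, had 45.4, 14.9 and 17.1 CPM and 0 UMIs in the adult, at least 19.7-fold lower there than at E17.5 when 3 UMIs are allowed for. Cdkn1c, a cell cycle inhibitor, had 93.9, 40.8, 227 and 5.48 CPM (edgeR adjusted p = 0.135).

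Hmga2, a chromatin protein of embryonic cells, had 70.1, 17.6, 32.1 and 0.289 CPM (edgeR adjusted p = 0.0682). Igf2bp3, a binder of growth factor messages, had 78.8, 90.8, 43.9 and 50.2 CPM, a ratio of 1.15 (1.09 to 1.22) in the NB step and of 1.14 (0.977 to 1.33) in the adult step, whose interval includes 1. Igf2 and Igf2bp1 did not reach the floor, with 3.83, 0.934, 0.0222 and 0 CPM and 9.68, 0.203, 1.97 and 0 CPM. A pair of secreted binders of insulin-like growth factors was under the floor in data set 1 and so was not tested: Igfbp7 had 0.1095, 1.22, 3.64 and 164 CPM and Igfbp5 had 2.74, 2.19, 1.44 and 70.1 CPM.

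The remaining leading genes that fell had no common list. Stmn2, a regulator of microtubules known from neurons, had 528 CPM at E15.5, 52.5 in NB, 188 at E17.5 and 1.15 in the adult library (4 UMIs), and fell (log2 change -4.57, SE 0.77, edgeR adjusted p = 0.0279). It was found in 50.7%, 8.05%, 26.2% and 0.237% of thinned cells. Fn1, fibronectin, had 692, 248, 318 and 51.7 CPM. Csrp2, a LIM domain protein, had 375, 135, 255 and 64.3 CPM. Pdlim2 had 107, 19.3, 56.7 and 11.8 CPM (log2 change -2.40, edgeR adjusted p = 0.00417). The log2 changes of Nt5dc2, Pgam2, Pkdcc, Tex40 and Plcd1 were -2.88, -2.02, -2.79, -1.60 and -1.90, and each was lower after birth in both steps.

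Basement membrane genes split between these directions. Fn1 and Lama5 were 2-fold lower and Sparc and Dcn 2-fold higher in both steps. Sparc, a collagen-binding protein, had 40.5, 157, 83.1 and 224 CPM and rose by 1.67 (edgeR adjusted p = 0.0189). With at least 5 UMIs of Psmb11 and Prss16, 1 gene of the list was 2-fold higher in both steps, and 3 were with no rule on them. The 1 gene was Dcn, so Sparc did not pass there. The log2 ratios of Dcn were then 3.15 and 4.32, against 2.84 and 5.17 over all kept cells. Dcn, decorin, had 2.85, 26.5, 5.71 and 239.8 CPM and was found in 4.62% of NB and 27.1% of adult thinned cells. Dcn is also on the list of mesenchymal markers, whose summed level was 8.87, 30.8, 9.81 and 244 CPM. The other 7 markers of that list were at most 3.46 CPM in the 4 libraries, and Pdgfra, Pdgfrb and Col1a1 had 0 UMIs in the adult.

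Some keratin and BMP pathway genes differed in 1 step alone or in opposite directions. Krt7 had 40.1 CPM at E15.5 and 518 in NB, and 373 at E17.5 and 317 in the adult. Krt19 had 11.2, 0.853, 3.04 and 31.2 CPM, and Krt14 25.8, 33.4, 25.98 and 140.2. Of the BMP and FGF genes, Id3 had 106, 123, 35.4 and 357 CPM and Id2 16.2, 32.01, 4.86 and 143. Medians in NB and adult were 0.38 and 0.20 for keratins and junctions, 0.11 and 0.30 for BMP and FGF, -0.24 and -0.26 for Wnt, 0.55 and 0.053 for lysosomal genes, 0.045 and 0.05 for antioxidant enzymes, -0.30 and -0.22 for DNA methylation and polycomb enzymes, and 0.0090 and -0.27 for the Bcl2 family. In these 7 lists 0 genes were 2-fold the same way in both steps. The edgeR test called 0 of them, with 12 higher and 8 lower at an unadjusted p under 0.05, and DESeq2 called 4 higher and 3 lower.

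Transcripts of other cells moved with the steps. Thymocyte markers summed to 11.7 CPM at E15.5 and 119 in NB, and to 32.6 at E17.5 and 152 in the adult, with 5 of 15 markers over the floor. Droplets with at least 3 thymocyte UMIs numbered 0 at E15.5, 172 in NB (4.79%), 81 at E17.5 (0.97%) and 28 in the adult (6.57%). Leaving them out gave 270 genes higher and 112 lower in both steps. Parathyroid markers went the other way: Pth had 88.3 and 75.03 CPM before birth, 1 UMI in NB and 0 in the adult, and 95.99% and 88.9% of its fetal UMIs came from the 1% of cells with most. Erythroid markers reached 320.5 CPM at E17.5 and less than 1 CPM elsewhere, with a haemoglobin UMI in 3335 of 8344 E17.5 cells, and without those cells 285 genes were higher and 102 lower. Myeloid, B cell, endothelial and neural crest markers summed to at most 14.4, 1.44, 12.8 and 5.77 CPM.

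The sexes also differed between libraries. Ddx3y, a gene of the Y chromosome, had 33.1, 18.97 and 20.7 CPM and 0 UMIs in the adult, and Eif2s3y had 21.6, 10.3 and 13.04 CPM and 0 UMIs there. Xist, expressed from the inactive X chromosome, had 608, 1041, 837 and 1389 CPM. The Y-linked genes were lower and Xist higher after birth in both steps, so sex and age cannot be told apart in either step for a gene that differs by sex.

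A second adult library, replicate 1, belongs to data set 1. It holds 335 kept cells and 1674959 UMIs, its myeloid markers sum to 476 CPM, and it shares the E15.5 library with the NB step, so its comparison with E15.5 is given side by side only. Put in place of NB, it gave 512 genes higher and 293 lower in both steps (of 7973 tested), and 270 and 94 of these were among the 284 and 105. The adult over E17.5 step was the same in this setting, so part of that overlap was fixed in advance. Fos had 3494 CPM in it, Atf3 1651, Psmb8 284, B2m 5544, Cd74 13450.0 and Mt1 2830.5. For the genes that fell it had 1.19 CPM of Stmn2, 13.7 of Top2a and 90.2 of Tpi1. Each of these 9 values lay on the same side of E15.5 as NB and, for E17.5, as adult replicate 2. The AP-1 list then had 31 of 33 genes 2-fold higher in both steps and a first median of 4.40. With this library the first median was -2.94 for G2 and M phase, -1.92 for S phase, 3.24 for glucocorticoid-responsive genes and -1.59 for fetal growth. It was 0.94 for lysosomal genes and -0.032 for the proteasome core. For mitochondrial ribosomal proteins, ribosome biogenesis and oxidative phosphorylation it was -0.58, -0.35 and -0.33, against -0.10 for all genes tested. In both steps, 8 of 12 glucocorticoid-responsive genes, 8 of 18 heat shock genes and 5 of 16 BMP and FGF genes were then 2-fold higher, and 8 of 14 fetal growth genes and 4 of 15 glycolysis genes were 2-fold lower.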

How the data were processed

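Single-cell RNA was captured on the 10x Chromium platform in 2 separate data sets, E15.5, NB and adult replicate 1 in data set 1 and E17.5 and adult replicate 2 in data set 2. The authors deposited whole-number UMI counts per gene and cell, made with Cell Ranger against mm10 per the labels. The labels name Cell Ranger 2.0.1, STAR 2.5.1b and bcl2fastq 2.17 in the submitters' processing notes, and the file headers of data set 2 name 3.0.1. The tables list 27998 and 31053 genes, of which 27514 are in both. A total of 13 tested genes had levels at least 10-fold apart between data sets, so ratios were taken only within a data set.

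Cells with over 5% mt- UMIs or over 5000 genes were left out. No doublet caller was run, and the gene limit was the treatment of doublets. The study removed contaminating clusters, which was not done here. Counts were summed over kept cells and compared on log2(CPM + 1), with a floor of 10 CPM in 1 library or more of each pair and a size rule of 2-fold. Intervals on single levels and ratios are exact 95% Poisson or binomial intervals and cover counting error only. Tests used edgeR 4.0.16 in R 4.3.3 (glmQLFit and glmQLFTest, TMM scaling, data set as a term, Benjamini-Hochberg threshold of 0.05) on 2 fetal and 2 postnatal libraries, and nothing says whether these came from separate litters. DESeq2 1.42.0 was an alternative. Scripts were tested on simulated data. Python 3.11.15, numpy 2.4.6, scipy 1.17.1 and scanpy 1.11.5 were used for the rest.

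The cells, gene lists and tests were chosen with earlier results of these data known. The named genes were the 15 in each direction with the largest weaker step among genes with an edgeR call, 2-fold in both steps and at least 50 CPM in 1 library or more of each pair, without Psmb11, Prss16, ribosomal protein, mitochondrial, haemoglobin, antigen receptor, sex-linked and other-cell marker genes, then up to 5 genes in each opposite-direction class, members of the lists described by role, and Myc and Foxn1. Promoters were taken from RefSeq for GRCm38.p6, and 6006 of 7737 tested genes matched one.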

Additional observations from a re-analysis of the deposited data

Results flagged for a closer look

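Of the 22 genes that passed 2-fold in opposite directions, 3 reached 50 CPM in each pair, and all 3 were higher in NB than at E15.5 and lower in the adult than at E17.5. The difference between the steps was not tested, since each age has 1 library in a data set. AY036118, a noncoding transcript, had 138 CPM at E15.5, 442 in NB, 769 at E17.5 and 182 in the adult, so that its log2 ratio was 1.67 in the NB step and -2.08 in the adult step, a difference (adult step minus NB step) of -3.7522. Serpina3g, a serine protease inhibitor, had 90.8, 204, 141 and 32.6 CPM, with a difference of -3.2298. Lrrk1, a kinase, had 38.0, 106, 68.0 and 30.6 CPM, with a difference of -2.5821. In edgeR their changes after birth were -0.21, -0.44 and 0.19 on the log2 scale (adjusted p = 0.916, 0.792 and 0.888). Adult cTEC replicate 1, of data set 1, had 752, 89.6 and 76.4 CPM of AY036118, Serpina3g and Lrrk1, log2 ratios over E15.5 of 2.44, -0.020 and 0.99. For Serpina3g and Lrrk1 it lay below NB of the same data set, and for AY036118 above it.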

How the results depend on the processing

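The size rule gave 284 genes higher and 105 lower. Its lower count was 227 with ribosomal protein and mt- genes left out of the totals. The counts were 486 and 224 with no floor, 125 and 27 with a floor of 50 CPM, 181 and 40 with a pseudocount of 10 CPM, 512 and 293 with adult cTEC replicate 1 in place of NB, and 100 and 11 at 4-fold. The 251 and 81 edgeR calls became 134 and 14 with no rule on Psmb11 and Prss16, 110 and 6 with at least 5 UMIs of these genes, 104 and 6 with cells chosen after thinning, 863 and 696 with no floor, 414 and 157 with adult cTEC replicate 1 in place of NB, 16 and 1 with no data set term, 5 and 1 with replicate 1 added, 59 and 3 in data set 1 only, and 413 and 244 with DESeq2. Lower calls were 146 without thymocyte droplets and 49 without cells with a haemoglobin UMI, the last chosen after seeing the data, and higher calls were 133 with a floor of 50 CPM. The cause of these shifts was not tested. Of the 30 named genes with a call, 26 lost their call with replicate 1 added and 22 with no data set term. In contrast, Fos, Egr1, Cxcl1 and F830016B08Rik kept it in 17 of 17 alternatives (highest adjusted p = 0.033, 0.0376, 0.0364 and 0.039 over the edgeR and DESeq2 fits). The fit in data set 1 only, with 1 fetal library, is among these alternatives. With replicate 1 in place of NB the median log2 ratio of core proteasome genes was -0.03204. Thinned to 1000 UMIs, the share holding Psmb11 or Prss16 UMIs was 91.04% at E15.5, 94.7% in NB, 96.78% at E17.5, 62.71% and 47.34% in adult replicates 2 and 1, and 3.405% and 3.269% in medullary cells.

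The main test pairs the libraries by data set. No paired analysis was possible because the labels give no replicate numbers shared between ages, beyond that term for data set, and with 1 library per age in a data set leaving one out gives no ratio. The adult library has the fewest counts, and genes near the 10 CPM floor there rest on few UMIs.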
